A study of Mus musculus with 8 samples.

Results

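Fos, Fosb, Fosl2, Jun, Junb, Jund, Egr1, Ier2, Zfp36 and Dusp1 are genes of the immediate early response, and they were followed here in p53 null and wild-type embryonic mouse kidneys. They were taken as a list of 10 symbols, and every non-control probe whose RefSeq accession maps to one of them was used. This gave 13 probes for 10 genes, of 41174 probes and 17305 named genes on the array. At least 1 probe of each gene passed the filter on dim probes, and 11 of the 13 probes passed; the second probes of Fosl2 and Zfp36 did not. A gene is given by its brightest probe that passed.

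RNA from kidneys of p53 null embryos was compared with RNA from kidneys of p53 wild-type embryos, both C57BL/6 and at embryonic day 15.5. The number of embryos behind an RNA and the construction of the null allele are not given in the sources used here. Null and wild-type RNA were hybridised together on each of 8 arrays with 2 colours, in 3 replicates. Replicate 1 had 4 arrays on slide 1, and replicates 2 and 3 had 2 arrays each on slide 2, with the dyes swapped on 1 of every 2 arrays. Each value is the log2 of null divided by wild type unless a level is named, and a replicate value is the mean over both dye orientations.

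Immediate early genes are transcribed within minutes of a stimulus, without prior protein synthesis, when kinase cascades activate factors such as SRF, the ternary complex factors and CREB that already sit at their promoters. Proteins of the Fos and Jun families pair through leucine zippers to form AP-1, which binds the sequence TGACTCA and the related cAMP response element TGACGTCA. Zfp36 and Dusp1 act back on the response, since ZFP36 binds AU-rich elements and speeds the decay of short-lived mRNAs and DUSP1 dephosphorylates MAP kinases.

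Several measurements of the whole series bear on every value below. The targeted gene Trp53 had −1.08, −0.47 and −0.45 in replicates 1, 2 and 3 on its brighter probe and 0.01, 0.28 and 0.18 on the other (limma, adjusted p = 0.279 and 0.387); the sources used here do not say whether either probe lies in deleted sequence. Over all probes kept, the ratios of replicates 2 and 3 correlated at 0.93, whereas replicate 1 correlated at 0.06 with replicate 2 and −0.15 with replicate 3. The wild-type levels of replicates 2 and 3 differed with an SD of 0.137 and 0.142 (log2, same dye), which was below the SD of 0.150 and 0.174 between repeat arrays of replicate 1. The wild-type RNA of replicates 2 and 3 thus differed by less than repeat arrays did and may be 1 sample. The null levels of replicates 2 and 3 differed with an SD of 0.183 with null in Cy5 (repeat arrays 0.186) and 0.199 with null in Cy3 (repeat arrays 0.135). The null RNA of those replicates was not 1 sample, because Xist was well above background in null on 2 of 2 arrays of replicate 2 and 0 of 2 of replicate 3, and the Y-linked Eif2s3y, Ddx3y and Kdm5d on 0 of 2 and 2 of 2. An SD near that of repeat arrays therefore does not by itself show that an RNA is shared. In replicate 1 the null RNA had Xist on 0 of 4 arrays and these Y-linked genes on 4 of 4. In wild type Xist was well above background on all 8 arrays, Eif2s3y and Kdm5d on 0 and Ddx3y on 2, so detection of sex-linked genes differed between the genotypes in replicates 1 and 3. The Xist ratio was −2.34, −0.66 and −1.74 in replicates 1, 2 and 3, so Xist was lower in null in replicate 2 as well. Of 12 kidney markers, 11 were well above background on every array in null and 10 in wild type. Replicates 2 and 3 are therefore also given as 1 mean per slide, and the p-values measure only the spread between these 3 values. As these are bulk samples, fewer cells of a type and less RNA per cell cannot be told apart.

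None of the 10 genes reached an adjusted p under 0.05 over all probes (limma, 4.22 degrees of freedom), and neither did any of the 12000 genes tested, so the background is 0%. At an unadjusted p under 0.05, Fos, Fosl2, Junb and Zfp36 were lower in null, against a background of 8.93% of all genes, and Jund was higher, against 9.23%; in either direction 5 of the 10 stood against 18.2% of genes and 17.2% of probes. The same 4 genes were lower in all 3 replicates (background 19.7%), and Jun and Jund were higher in all 3 (background 20.4%). On its other, untested probe Fosl2 had 0.17, 0.03 and −0.12 in replicates 1, 2 and 3. The replicate 1 sign of Junb followed the dye. Fos passed the filter only through wild type, since null was well above background on 0 of 4 slide 2 arrays. Its slide 2 ratio is only a bound in each count that includes Fos, above and below. The size of the differences lay on slide 2: there Fos, Junb and Zfp36 were lower by 1.5-fold or more (background 5.82%) and none was higher by that much (background 7.42%). In replicate 1 none of the 10 differed by 1.5-fold in either direction (background 2.71% lower and 0.125% higher). The median absolute ratio of the 10 genes was 0.18 in replicate 1 and 0.47 on slide 2, against 0.14 and 0.22 over all genes tested.

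**Figure D1:**
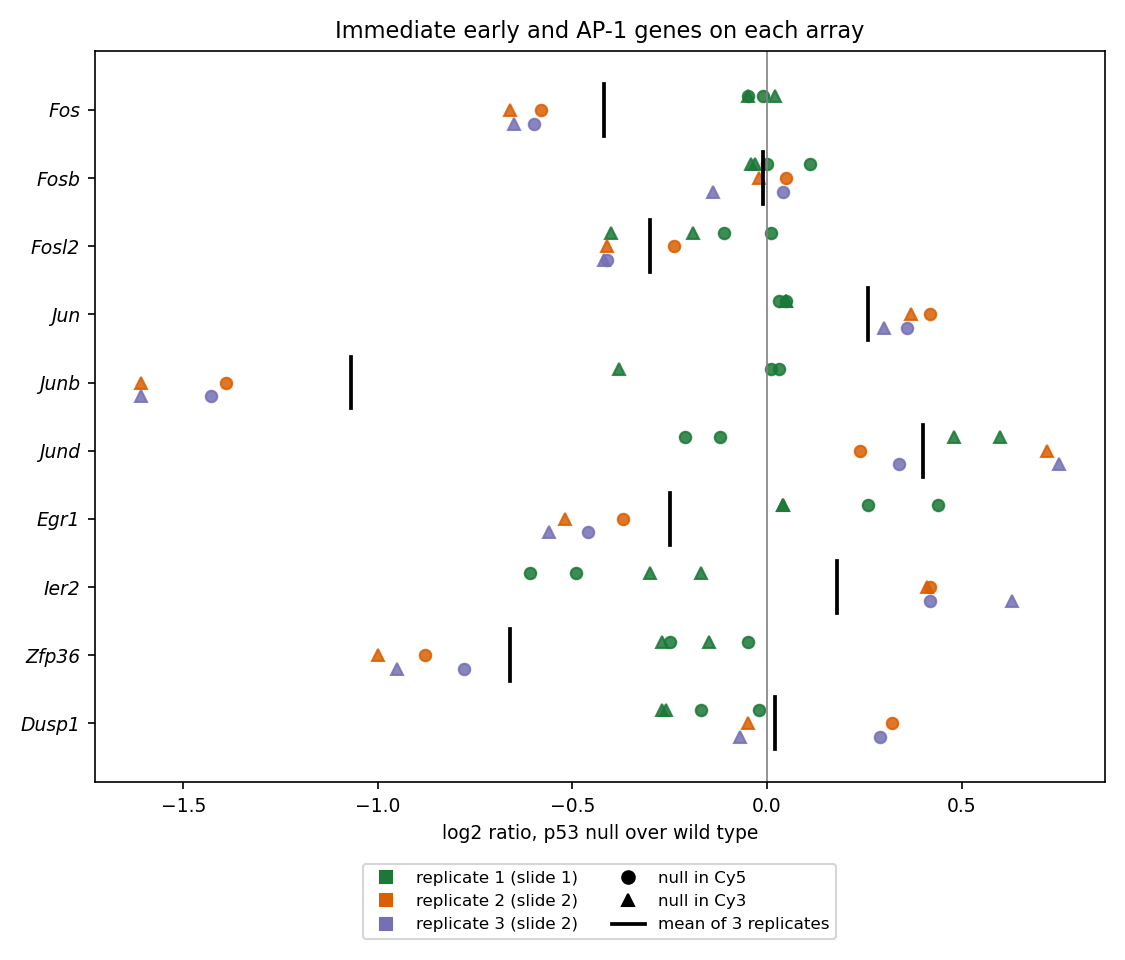
Log2 ratio of p53 null over wild type (x axis) for the 10 genes (y axis) on each array with a value; colours mark the replicates, circles arrays with null RNA in Cy5, triangles arrays with null RNA in Cy3, and black bars the mean of the 3 replicate values. The slide 2 points of Junb lie between −1.61 and −1.39 and those of Zfp36 between −1.0 and −0.78, while Junb on slide 1 lies between −0.38 and 0.03.

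The promoters of Fos, Junb and Zfp36, the 3 genes lower by 1.5-fold or more on slide 2, are shown with that of Jun, which was higher in null on every array, so that known elements of genes that differed in direction can be read side by side. Each runs 5′ to 3′ on the gene's strand from 250 bases before to 50 bases after the annotated start in RefSeq (GRCm38.p6), and capitals mark matches to the motifs searched. They lie at chr12:85473640-85473939 (plus strand) for Fos, chr8:84978699-84978998 (minus) for Junb, chr7:28379179-28379478 (minus) for Zfp36 and chr4:95052173-95052472 (minus) for Jun.
Fos: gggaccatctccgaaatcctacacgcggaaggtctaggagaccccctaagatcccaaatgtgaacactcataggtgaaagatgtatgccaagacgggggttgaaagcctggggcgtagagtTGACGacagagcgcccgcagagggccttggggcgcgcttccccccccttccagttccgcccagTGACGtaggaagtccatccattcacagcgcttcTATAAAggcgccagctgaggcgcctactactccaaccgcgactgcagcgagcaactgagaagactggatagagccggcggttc
Junb: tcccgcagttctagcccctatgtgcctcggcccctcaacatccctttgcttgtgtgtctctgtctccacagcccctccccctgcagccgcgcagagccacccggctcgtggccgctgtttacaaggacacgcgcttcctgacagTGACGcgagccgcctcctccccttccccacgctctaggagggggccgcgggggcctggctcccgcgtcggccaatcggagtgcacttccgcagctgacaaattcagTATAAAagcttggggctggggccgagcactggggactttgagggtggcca
Zfp36: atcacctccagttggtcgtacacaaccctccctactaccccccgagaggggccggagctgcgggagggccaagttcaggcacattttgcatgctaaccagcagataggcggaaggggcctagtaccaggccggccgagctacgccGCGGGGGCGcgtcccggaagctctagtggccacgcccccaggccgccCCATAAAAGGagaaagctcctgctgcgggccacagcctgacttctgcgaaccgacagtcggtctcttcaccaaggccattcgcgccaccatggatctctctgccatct
Jun: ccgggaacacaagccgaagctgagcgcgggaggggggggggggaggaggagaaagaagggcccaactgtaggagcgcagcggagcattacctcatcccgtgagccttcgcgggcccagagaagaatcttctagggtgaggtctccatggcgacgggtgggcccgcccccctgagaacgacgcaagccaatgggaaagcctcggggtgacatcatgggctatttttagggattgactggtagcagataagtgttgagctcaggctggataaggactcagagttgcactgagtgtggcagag

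Counting the first transcribed base as 0, the Fos window holds the core of a cAMP response element, TGACG, at −129 and −66 and a TATA box, TATAAA, at −33. In Junb, TGACG lies at −106 and TATAAA at 0, on the annotated start itself. Zfp36 has the EGR family site GCGGGGGCG at −105 and a CArG box, the element that SRF binds, at −58. The Jun window holds none of the motifs searched, but it holds tgacatca, which is close to the full element TGACGTCA without matching it. Only matches to the written motifs within these windows were counted, so variant elements and elements farther from the start would be missed. Promoters of 8 of the 10 genes were matched in the table; Egr1 and Ier2 were not. On both strands, TGACG was in 4 of the 8 (Fos, Fosb, Junb and Dusp1), against 20.8% of 32851 promoters of the same length. The full element TGACGTCA, which contains TGACG, was in Dusp1 (1.79% of promoters), GCGGGGGCG in Fosb, Fosl2 and Zfp36 (2.91%), the CArG box in Zfp36 (1.63%) and TATAAA in Fos and Junb (13.6%). The AP-1 site TGACTCA (5.2% of promoters), the EGR site GCGTGGGCG (0.612%) and a p53 half-site (8.36%) were in 0 of the 8 windows.

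Fos encodes the founding member of the Fos family, which must pair with a Jun protein to bind DNA. Its probe, spotted 10 times, gave −0.01, 0.02, −0.05 and −0.05 on the arrays of replicate 1, −0.58 and −0.66 on those of replicate 2, and −0.60 and −0.65 on those of replicate 3. All slide 2 arrays were thus lower than all slide 1 arrays, and the slide 1 arrays lay around 0. The mean was −0.42 ± 0.35 (SD, n = 3; limma, adjusted p = 0.29), and intensity in null was 98.6% of wild type in replicate 1 and 65.0% on slide 2, where it is an upper limit. The mean was −0.78 with an offset of 16 in place of 50, and −2.61 by the scanner program's log ratio. In null kidneys Fos was well above background on 4 of 4 slide 1 arrays and 0 of 4 slide 2 arrays, and in wild-type kidneys on all 8. With null at its bound, the null level of Fos was at least 1.54-fold lower on the arrays of replicate 2 and at least 1.53-fold lower on those of replicate 3; the bound is the higher of the null signal and the lowest signal well above background on each array. The normalized level was 6.45, 6.49 and 6.47 in null and 6.47, 7.11 and 7.09 in wild type in the 3 replicates; the wild-type level was higher on slide 2 than on slide 1 by 0.63, and the null values of slide 2 are upper limits. Over all kept probes the ninetieth percentile of the absolute shift between slides was 1.15 in null and 1.24 in wild type.

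Fosb, a second activating Fos protein known from neurons, showed no difference beyond the spread: it had 0.01, 0.01 and −0.05 in the 3 replicates (mean −0.01 ± 0.03, adjusted p = 0.95 by limma). It was dim, with null well above background on 7 arrays and wild type on 6. Fosl2, also called Fra-2, lacks the strong activation domain of Fos. Its probe had 0.01, −0.19, −0.11 and −0.40 on the arrays of replicate 1, −0.24 and −0.41 in replicate 2, and −0.41 and −0.42 in replicate 3, so 7 of 8 arrays were lower in null. The mean was −0.30 ± 0.12 (n = 3, limma, adjusted p = 0.279), and null was well above background on 6 arrays and wild type on 8. With an offset of 16 the mean was −0.55, and by the scanner program's log ratio −1.56. The second Fosl2 probe disagreed, with 0.17, 0.03 and −0.12 in the 3 replicates. It was not tested because it was dim on slide 2, where null was well above background on 1 of 4 arrays and wild type on 0. On slide 1 both genotypes were well above background on 4 of 4 arrays, and null was higher on each (0.19, 0.06, 0.38 and 0.02). The tested probe had null well above background on 2 of 4 slide 1 arrays, those with null in Cy5 (0.01 and −0.11). On the slide 1 arrays with null in Cy3 (−0.19 and −0.40) null was not well above background, so each of these values is only a bound.

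Of the 3 Jun genes, Junb was lower in null and Jun and Jund were higher. Junb, a Jun protein that is a weak activator and can hold back JUN, had the lowest measured ratio of the 10 genes with the offset of 50; by the scanner program's log ratio its mean was −1.13, against −2.61 for Fos and −1.56 for Fosl2. On its brighter probe it had 0.03, −0.38 and 0.01 on 3 arrays of replicate 1, −1.39 and −1.61 in replicate 2, and −1.43 and −1.61 in replicate 3; the fourth array of replicate 1 was flagged as an outlier. Slide 1 and slide 2 arrays did not overlap. The mean was −1.07 ± 0.77 (n = 3, limma, adjusted p = 0.279), with 88.2% of the wild-type intensity in replicate 1 and 35.1% on slide 2. A second Junb probe, measured on all 8 arrays, had −0.08, −1.23 and −1.32 in the 3 replicates (−0.88 ± 0.69, limma, adjusted p = 0.283). On the arrays of replicate 1 it had 0.18 and 0.21 with null in Cy5 and −0.34 and −0.36 with null in Cy3. The brighter probe had 0.03 and 0.01 with null in Cy5 and −0.38 with null in Cy3. The replicate 1 sign thus followed the dye on both probes. Both probes were well above background in both genotypes on every array. The level on the brighter probe was 9.40, 9.99 and 9.76 in null and 9.58, 11.49 and 11.28 in wild type: on slide 2 it was above slide 1 by 0.47 in null and 1.8 in wild type.

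Jun, the Jun protein whose activity is raised by JNK, was higher in null on every array, as were 7.88% of all genes. Its probe, spotted 10 times, had 0.05, 0.05, 0.03 and 0.05 in replicate 1, 0.42 and 0.37 in replicate 2, and 0.36 and 0.30 in replicate 3. The replicate 1 values were close to 0 and the slide 2 values reached 129% of wild type on average. The mean was 0.26 ± 0.19 (n = 3, limma, adjusted p = 0.303). Jund, the Jun gene that most tissues express without a stimulus, had −0.21, 0.48, −0.12 and 0.60 in replicate 1, 0.24 and 0.72 in replicate 2, and 0.34 and 0.75 in replicate 3. Its value depended on the dye, being 0.14 with null in Cy5 and 0.67 with null in Cy3, and the 2 arrays lower in null both had null in Cy5. The mean over both dyes was 0.40 ± 0.19 (n = 3, limma, adjusted p = 0.279), with 114% of wild type in replicate 1 and 143% on slide 2. Set side by side on slide 2, the mean ratio was −1.51 for Junb, 0.36 for Jun and 0.51 for Jund; the difference between the genes was not tested.

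**Figure D2:**
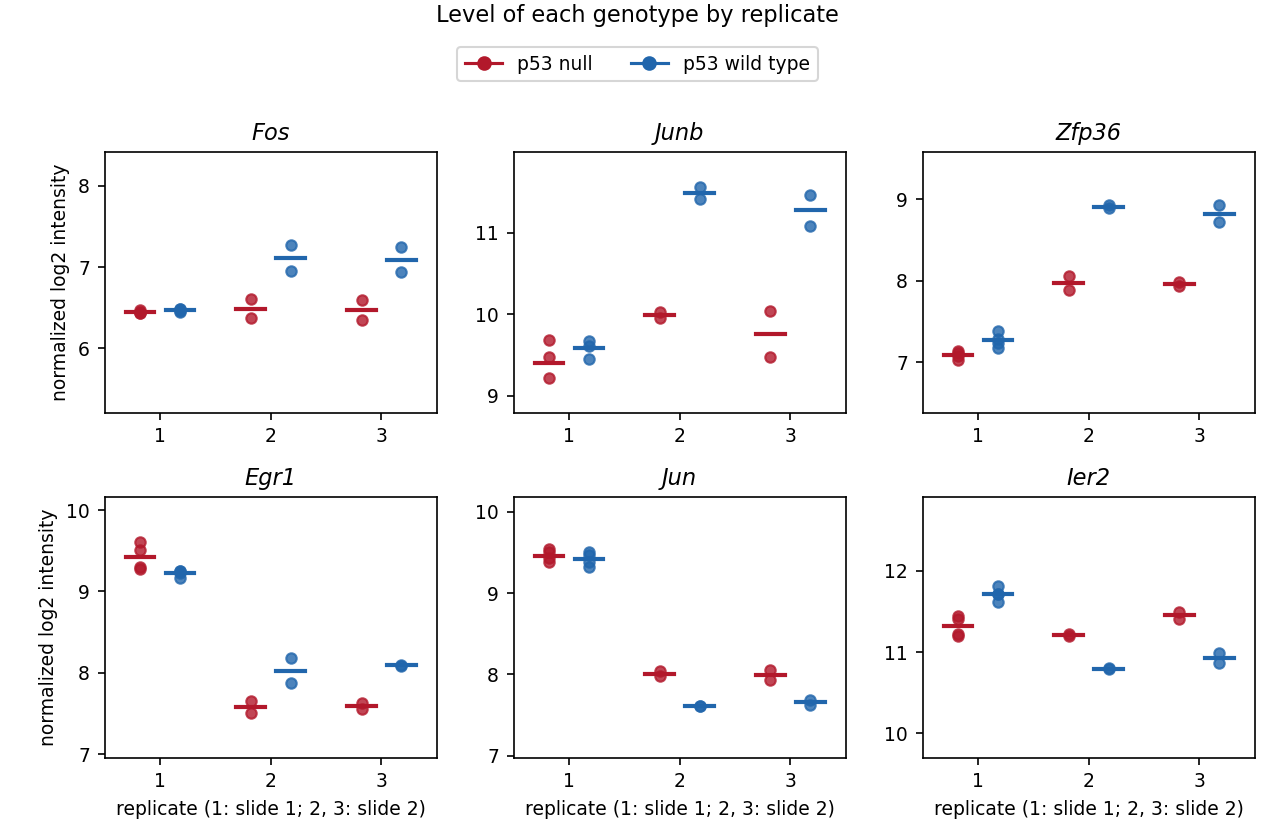
Normalized log2 intensity (y axis, each panel spanning the same number of log2 units) of p53 null (red, left) and p53 wild type (blue, right) in each replicate (x axis) for 6 genes; points are arrays and bars the replicate values. Null lies below wild type on slide 2 for Fos, Junb, Zfp36 and Egr1 and above it for Jun and Ier2, and for Ier2 and Egr1 the order is the other way round in replicate 1.

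Egr1 and Ier2 had opposite signs on the slides, as did Dusp1; 45.4% of all genes did so. Egr1 encodes a zinc finger factor that SRF induces alongside Fos. It had 0.26, 0.04, 0.44 and 0.04 in replicate 1, −0.37 and −0.52 in replicate 2, and −0.46 and −0.56 in replicate 3, so that null was higher on all 4 slide 1 arrays and lower on all 4 slide 2 arrays. The mean of −0.25 ± 0.39 (n = 3, limma, adjusted p = 0.456) averages over these signs, and was −0.53 by the scanner program's log ratio; intensity was 115% of wild type in replicate 1 and 71.8% on slide 2. Its level was lower on slide 2 than on slide 1 in both genotypes, with a difference of −1.84 in null and −1.17 in wild type. Ier2, a small nuclear protein induced by growth factors, ran the other way. It had −0.49, −0.17, −0.61 and −0.30 in replicate 1, 0.42 and 0.41 in replicate 2, and 0.42 and 0.63 in replicate 3. The mean was 0.18 ± 0.50 (n = 3, limma, adjusted p = 0.654), with 76.1% of wild type in replicate 1 and 138% on slide 2.

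Of the 2 feedback genes, Zfp36 was the only gene of the 10 lower in null on every array; 8.05% of all genes were. It had −0.05, −0.15, −0.25 and −0.27 in replicate 1, −0.88 and −1.0 in replicate 2, and −0.78 and −0.95 in replicate 3. The slides did not overlap, and the intensity in null was 88.3% of wild type in replicate 1 and 53.6% on slide 2. The mean was −0.66 ± 0.42 (n = 3, limma, adjusted p = 0.279), and −1.04 by the scanner program's log ratio. Its level was 7.09, 7.97 and 7.96 in null and 7.27, 8.91 and 8.82 in wild type. The second Zfp36 probe, well above background on 1 null array and 0 wild-type arrays, had 0.10, −0.03 and −0.01 and was not tested. Dusp1, in contrast, had a replicate value of −0.18 on slide 1 and of 0.13 and 0.11 on slide 2 (mean 0.02 ± 0.17, n = 3, limma, adjusted p = 0.919). On slide 2 its sign followed the dye, with 0.32 and 0.29 where null was in Cy5 and −0.05 and −0.07 where null was in Cy3.

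Without replicate 1, 8 of the 10 genes passed the threshold, 5 lower (Fos, Fosl2, Junb, Egr1 and Zfp36) and 3 higher (Jun, Jund and Ier2). Fos is among them with a slide 2 ratio that is only a bound. In that fit 27.2% of all genes were called lower and 32.9% higher, 60.1% in all, and its only spread is that between replicates 2 and 3, which may share their wild-type RNA. Treating each slide as 1 value left 0 of 10 past the threshold. With slide as a fixed block, which takes its spread from replicates 2 and 3 as well, 6 of the 10 passed (Fos, Fosl2, Junb and Zfp36 lower, Jun and Jund higher), as did 8521 of 20865 probes. With all 8 arrays and the replicate as a random block, Junb and Zfp36 passed, as did 1132 of 20450 probes. The slide 2 mean of the 10 genes had a median of −0.19, against 0.03 over all genes tested, and their replicate 1 median was −0.10, against −0.02.

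**Figure D3:**
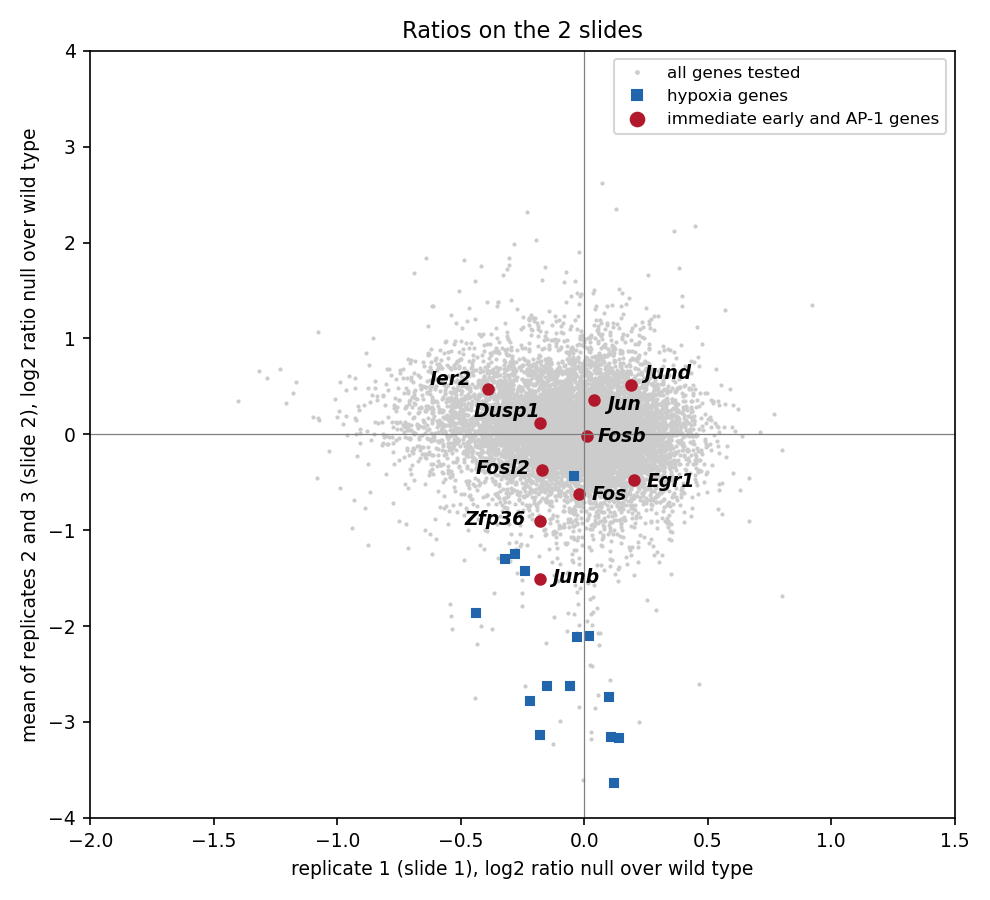
Log2 ratio of p53 null over wild type in replicate 1 (x axis) and as the mean of replicates 2 and 3 (y axis) for all 12000 genes tested (grey; 2 genes lie outside the axes), 15 hypoxia genes (blue squares) and the 10 immediate early and AP-1 genes (red). Junb lies at −0.18 and −1.51, among the hypoxia genes, and Ier2 and Egr1 lie on opposite sides of both zero lines.

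Likeness of pattern was measured as the root mean square difference of the log2 ratio over arrays, as a description. Junb lay 0.482 from Zfp36 and 1.59 from Jund. No distance or nearest gene is given for Fos, since its null signal was not well above background on slide 2 and its ratio there is only a bound. Over all named genes the 5 nearest to Junb on 7 arrays were Pgam1 (0.0932), Cebpd (0.122), Thbs1 (0.134), Khnyn (0.141) and Mxi1 (0.147). PGAM1 is an enzyme of glycolysis, CEBPD a bZIP factor of the acute phase response, thrombospondin 1 a matrix protein and MXI1 an antagonist of MYC. Pgam1 had −0.25, −1.52 and −1.53 in the 3 replicates, close to Junb in each.

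The rest of the pathway was counted over 6 lists with 111 genes, of which 89 were measured. None passed the threshold over all probes (background 0%), and 23 were lower and 7 higher at an unadjusted p under 0.05 (background 8.93% and 9.23%). Their median ratio was −0.02, with −0.07 in replicate 1 and −0.03 on slide 2, against 0.00 over all genes tested. On slide 2, 16 were lower and 14 higher by 1.5-fold or more (background 5.82% and 7.42%), so both directions were present.

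Of the other AP-1 and bZIP partners, 10 of 15 were measured (median −0.10), and 2 were lower and 0 higher at an unadjusted p under 0.05. Atf3, a stress-induced partner of Jun, had −0.43 ± 0.29, and Maff, a small Maf protein without an activation domain, had −1.36 ± 1.24 with 0.06 in replicate 1 and −2.07 on slide 2. Batf and Batf3, which pair with Jun proteins in lymphocytes and dendritic cells, had −0.19 ± 0.21 and −0.10 ± 0.05. Of the other immediate early transcription factors, 15 of 20 were measured (median 0.01), with 6 lower and 1 higher. Atf3 and Maff belong to this list too and are among those 6, and each is counted once over all lists together. Nr4a1, an orphan nuclear receptor, had −0.72 ± 0.51, Nfkbia, the inhibitor of NF-κB, had −0.93 ± 0.70, and Hes1, a Notch target, had −0.43 ± 0.12 with −0.34 in replicate 1 and −0.47 on slide 2. The 2 widest values of the list on slide 2, picked after the values were seen, were 2.35 for Klf2 and −3.23 for Bhlhe40. Each ± here and below is an SD over 3 replicates.

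Immediate early effectors had the lowest median of the 6 lists (−0.26, 22 of 25 measured), with 10 lower and 2 higher at an unadjusted p under 0.05. Per1, a repressor of the circadian clock that CREB induces, had −0.89 in replicate 1 and −0.77 on slide 2 (mean −0.81 ± 0.21), so it was lower to a similar degree on both slides. Ier5l had −0.48 ± 0.22, Gadd45b, an activator of stress kinases, −0.85 ± 0.54, and Rgs2, an inhibitor of G protein signalling, 0.40 ± 0.10. Of the mRNA decay and phosphatase relatives, 11 of 16 were measured (median −0.01; 2 lower, 1 higher). Zfp36l1 and Zfp36l2, the paralogs of Zfp36, had −0.57 ± 0.39 and −0.18 ± 0.05, the phosphatase Dusp4 had −0.75 ± 0.51, and Spry2, an inhibitor of receptor tyrosine kinase signalling, had 0.41 ± 0.17.

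Upstream kinases and factors had a median of 0.05 (20 of 23 measured; 3 lower, 1 higher). Mapk3, the kinase ERK1, had −0.39 ± 0.09, Map2k1, the kinase MEK1, had −0.65 ± 0.57 with 0.00 in replicate 1, Rps6ka1 had −0.37 ± 0.27 and the ternary complex factor Elk3 had 0.32 ± 0.19. The AP-1 target genes had a median of −0.02 (13 of 15 measured; 2 lower, 2 higher). Among them the protease Mmp9 had −0.25 ± 0.09, the intermediate filament Vim −0.22 ± 0.09, the growth factor Hbegf 0.33 ± 0.20 and Lor, a protein of the cornified skin envelope, 0.69 ± 0.58.

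**Figure D4:**
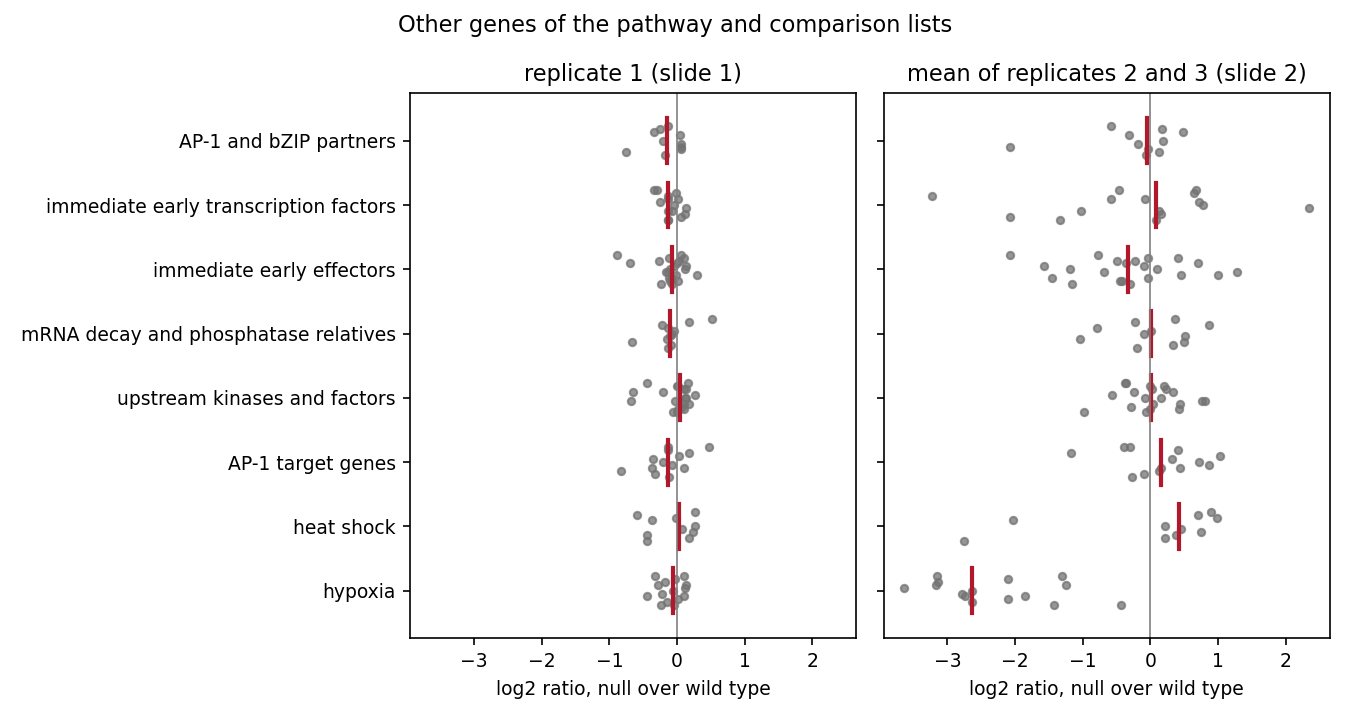
Log2 ratio of p53 null over wild type (x axes) for the measured genes (points) of 6 pathway lists and the heat shock and hypoxia lists (y axis), in replicate 1 (left) and as the mean of replicates 2 and 3 (right); red bars are medians. The 6 pathway medians lie between −0.33 and 0.15 on slide 2, and the hypoxia median at −2.63.

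Other stress programmes and markers also differed on slide 2, where the differences of Fos, Junb and Zfp36 lay. All 15 hypoxia genes were lower in both replicates of slide 2 (background 39.3%), 14 of them by 1.5-fold or more, and their median was −0.06 for replicate 1, against −2.63 on slide 2. Egln3, Ldha and Vegfa had −0.98 ± 0.56, −1.39 ± 0.82 and −0.93 ± 0.56. The heat shock median was 0.04 in replicate 1 and 0.41 on slide 2; Dnaja1 and Hsph1 had 0.68 ± 0.39 and 0.57 ± 0.34, whereas Hspa1b, which is nearly identical to Hspa1a and may share its signal, had −1.48 ± 0.97. All 10 measured macrophage and leukocyte markers were higher on both replicates of slide 2 (background 46.3%), and their median was −0.16 for replicate 1, against 0.55 on slide 2. The erythroid median was −0.31 for replicate 1 and 1.1 on slide 2, but the list did not go one way on slide 2, where the embryonic globin Hbb-y had −2.60 and the adult globin Hbb-bt 1.76, Alas2 1.81 and Slc4a1 1.72. The endothelial median was −0.01 and 0.54, the liver −0.03 and 0.78 and the kidney −0.05 and 0.01, in replicate 1 and on slide 2. Of 7 endothelial markers, 5 were higher and 1 lower in both replicates of slide 2, where the lower one, Kdr, had −0.35. The liver median rests on 4 of 6 markers. The kidney list did not go one way either: of 11 measured markers, 5 were lower and 5 higher in both replicates of slide 2. There Slc12a1 had 1.6 and Umod 0.74, whereas Foxd1 had −0.74 and Six2 −0.45. The median absolute ratio of the kidney markers on slide 2 was 0.4, against 0.22 over all genes tested. Albumin was well above background in null on all 4 slide 2 arrays and on no slide 1 array, and in wild type on 1 slide 1 array and no slide 2 array. The part of hypoxia genes, of other cell types, and of embryo sex in the values of the 10 genes was not tested. Slide 1 held replicate 1 alone, so slide and replicate cannot be told apart.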

How the data were processed

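Null and wild-type kidney RNA of embryonic day 15.5 was compared directly on 8 arrays with 2 colours (3 replicates; slide and scan from the file headers). The authors deposited scanner files whose spot and background values are linear intensity, and whose log10 ratios of red over green come, per the file headers, from Agilent Feature Extraction 10.5.1.1 (version 6.1 in the submitters' processing notes). Their deposited value table holds the same log10 ratios turned to null over wild type (largest difference 4.94e-06; column medians from −0.00244 to 0.0111); it leaves 7732 to 14364 of 43379 spots of an array empty.

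From the median signals (a mean signal is not among the columns used here), log2 ratios were computed in limma 3.58.1 (R 4.3.3) with normexp (offset 50, which compresses ratios of dim probes) and loess. The 1639 control spots were left out, 106 to 348 outlier spots of an array were set to missing, and 0 spots were saturated. The filter kept probes for which, in every replicate, the same genotype exceeded background on 50% or more of the arrays (20880 of 41174). Names came from RefSeq accessions (GRCm38.p6; 25097 probes named, 4257 tested probes unnamed); the array design is on mm9, so no probe position is given. The 3 replicate values were tested against 0 with limma (two-sided, 20865 probes, Benjamini-Hochberg adjustment over all of them). The fit was also run on simulated data with independent replicate values, whereas the ratios of replicates 2 and 3 correlated at 0.93. That run does not show how the test behaves where replicates are alike in this way. A sign permutation over 3 values cannot go below p = 0.25. The small number of replicates and slides limits the precision, since arrays of the same replicate are technical repeats and were averaged.

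The genes and the lists, and with them the rule for named genes (all members; per list up to 4 genes of smallest p, 3 in comparators; the 5 genes most like Fos, not given because its null signal was at background, and most like Junb), were chosen with earlier results of these data known. Alternatives covered background, normalization, filter, probe, dye, slide, replicate and the deposited table.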

Additional observations from a re-analysis of the deposited data

How the results depend on the processing

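With all 3 replicates as equal values, 0 probes, 0 of the 10 genes and 0 of the 89 related genes passed the threshold (limma; 3583 probes and 5 of the 10 genes had an unadjusted p under 0.05), and the same held under the other background, normalization, filter, dye, probe and table settings and with 1 value per slide (522 probes at an unadjusted p under 0.05, none of the 10 genes). Leaving out 1 replicate gave between 0 and 11699 probes, between 0 and 8 of the 10 genes and between 0 and 66 related genes; all calls came without replicate 1. Slide as a fixed block gave 8521 probes, 6 of the 10 genes (Fos, Fosl2, Junb and Zfp36 lower, Jun and Jund higher) and 53 related genes. All 8 arrays with a random replicate block (correlation 0.72) gave 1132 probes, 2 of the 10 genes and 17 related genes; those 2 were Junb (−0.85, adjusted p = 0.0428, on its second probe) and Zfp36 (−0.65, adjusted p = 0.0354), whose adjusted p ranged up to 1 over all settings. Dusp1 turned to −0.03 without replicate 2, −0.02 without replicate 3, −0.03 with the slide block and with 1 value per slide, and −0.13 with null in Cy3 only. Fosb turned to 0.01 without replicate 3 and 0.05 with null in Cy5 only, and Fosl2 to 0.03 with no filter, when its other probe became the brighter; the cause of the Dusp1 and Fosb turns was not tested. The other 7 genes kept their direction under all settings run, but every setting included slide 2 arrays and none used replicate 1 alone. In replicate 1 Egr1 had 0.20 and Ier2 −0.39, each opposite in sign to its mean. Ier2 fell to 0.01 without replicate 3. Fos ranged from −2.61 (scanner log ratio and deposited table) to −0.32 (slide block, 1 value per slide, and without replicate 2 or 3), with −0.78 at offset 16 and −0.60 without background subtraction. With the scanner log ratio and the deposited table Fosl2 had −1.56, Junb −1.13, Zfp36 −1.04 and Egr1 −0.53; these replace background correction and normalization together, and which of them moves the values was not tested. Median centring moved the median of all probes to 0.12, from 0.01 with loess, and raised Jund to 0.70. With both genotypes above background on every array, 7 of the 10 genes were left. Levels of Fos, Fosb and Fosl2 near background limit what their ratios can show.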
